A study of Mus musculus with 9 samples.

Results

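The genes described here make, move, sense and break down serotonin in the brain. They are Tph2, Slc6a4, the receptor genes Htr1a, Htr1b, Htr2a, Htr2c and Htr3a, and the monoamine oxidase genes Maoa and Maob. Every probe set that the platform annotation assigns to 1 of these genes alone was taken, whatever its level or its difference between strains. This gave 12 of the 45037 probe sets on the array, for 8 of the 9 genes, out of 18193 genes with such a probe set. Htr1a, Htr1b, Htr2c and Maoa had 2 probe sets each, and Tph2, Slc6a4, Htr3a and Maob had 1 each. No probe set was assigned to Htr2a alone, so Htr2a was not analysed here.

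RNA came from brain hemispheres, without the cerebellum, of untreated adult male mice aged 11 ± 1 weeks. The strains were B6By.C.132.54, BALB/cJ and C57BL/6ByJ. BALB/cJ and C57BL/6ByJ are inbred laboratory strains, and the name B6By.C.132.54 marks a strain with a C57BL/6By background and a BALB/c donor, although the labels do not list which donor segments it carries. Each of the 9 arrays (Affymetrix Mouse430_2) held RNA pooled from 10 hemispheres, with 3 arrays per strain and 30 mice per strain. A pool averages over mice, so the spread between arrays is that between pools and not between single animals. All values below are log2 of the deposited intensity, and SD is over the 3 arrays of a strain.

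Serotonin is made from tryptophan by neurons whose cell bodies lie in the raphe nuclei of the brainstem, while their axons reach nearly the whole forebrain. TPH2 catalyses the rate-limiting hydroxylation, the transporter encoded by Slc6a4 takes released serotonin back into the neuron, and receptors on target cells and on serotonin neurons themselves read the signal. Monoamine oxidases A and B are enzymes of the outer mitochondrial membrane that oxidise serotonin, dopamine and noradrenaline to aldehydes. Maoa and Maob lie next to each other on the X chromosome.

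The median intensity of an array lay between 15.49 and 15.99, and the mean correlation of an array with the others of its strain lay between 0.9880 and 0.9947. B6By.C.132.54 replicate 3 had the lowest such correlation and also the narrowest spread of values (interquartile range 2.731), so values without it are given beside the differences it moved most. Between BALB/cJ and C57BL/6ByJ, 1 of the 12 probe sets was called at an adjusted p under 0.05 (limma, Benjamini-Hochberg over all 45037 probe sets), against 1.43% of all probe sets, and 1 of the 12 and 7.58% of all had an unadjusted p under 0.05. Between B6By.C.132.54 and C57BL/6ByJ none of the 12 was called, and the share among all probe sets was 0%, while 1 of the 12 and 3.89% of all had an unadjusted p under 0.05. Between B6By.C.132.54 and BALB/cJ none of the 12 was called, against 1.28% of all, and 2 of the 12 and 7.5% of all had an unadjusted p under 0.05. The called probe set was that of Maob, lower in BALB/cJ, where 0.921% of all probe sets were called lower. As a check of the tissue, all 12 neuron markers and all 11 astrocyte markers were above the median of all probe sets, while of 8 cerebellum markers 4 were below it, Gabra6 and Pcp2 among them (means 3.24 and 3.75), and 4 were above it, such as Cbln1 (6.59).

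**Figure D1:**
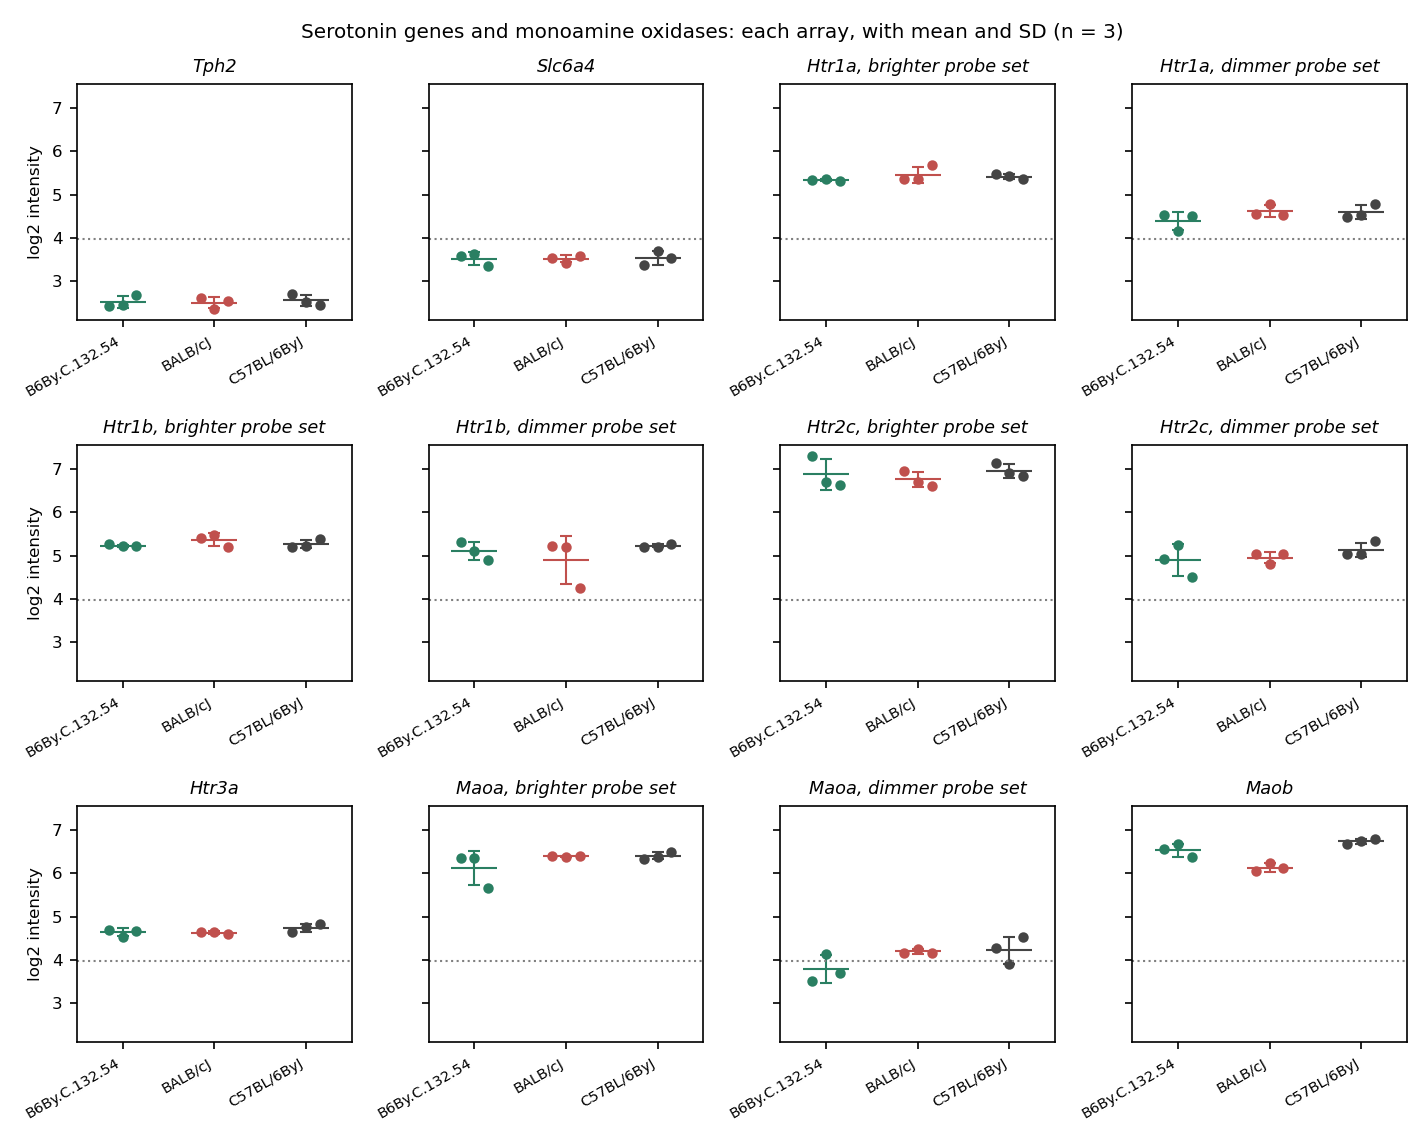
Log2 intensity of each probe set on each array for B6By.C.132.54 (green), BALB/cJ (red) and C57BL/6ByJ (dark grey), with the mean (horizontal line) and SD (bars, n = 3); the dotted line is the median of all probe sets (3.97). Tph2 and Slc6a4 lie below that median on all arrays, and Maob is the panel in which the 3 strains do not overlap.

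Tph2, the gene of the brain's tryptophan hydroxylase (chromosome 10), gave a signal near background. Its log2 intensity was 2.42, 2.46 and 2.68 in B6By.C.132.54, 2.61, 2.36 and 2.55 in BALB/cJ, and 2.71, 2.52 and 2.46 in C57BL/6ByJ. The 3 strains overlapped fully. The mean of 2.53 over the 9 arrays fell short of the median over all probe sets (3.97), and 7.98% of probe sets were dimmer. As a second scale for background, the 44 probe sets of olfactory receptor genes, which brain tissue is not known for transcribing at high levels, had a median of 2.96 and ran between 2.28 and 5.67, and Tph2 was brighter than 3 of them. The differences were -0.06 for BALB/cJ minus C57BL/6ByJ, -0.04 for B6By.C.132.54 minus C57BL/6ByJ and 0.02 for B6By.C.132.54 minus BALB/cJ (limma adjusted p = 0.983, 0.966 and 0.989). At a level this close to background, a strain difference in Tph2 transcript was not detectable with these arrays.

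Slc6a4, the gene of the serotonin transporter (chromosome 11), was also near background, with a mean of 3.53. Its log2 intensity was 3.58, 3.64 and 3.35 in B6By.C.132.54, 3.53, 3.43 and 3.59 in BALB/cJ, and 3.38, 3.71 and 3.53 in C57BL/6ByJ. The strains again overlapped, and 41% of all probe sets were dimmer. Unlike Tph2, it was brighter than most olfactory receptor probe sets (38 of 44). The differences were -0.02 for BALB/cJ minus C57BL/6ByJ (95% interval -0.27 to 0.23), -0.02 for B6By.C.132.54 minus C57BL/6ByJ (-0.26 to 0.23) and 0.00 for B6By.C.132.54 minus BALB/cJ (-0.24 to 0.25). None passed the test (limma adjusted p = 0.995, 0.985 and 0.999).

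Other genes that mark serotonin neurons were dim as well. Of 9 transcription factor genes that specify these neurons, 7 were analysed, and 5 of the 7 were near background, with a mean under that median. The dimmest was En1, a midbrain and hindbrain patterning gene, at 2.40, and the brightest was Gata2 at 5.69, a factor that other cells also use. None was called in any of the 3 comparisons, where the lowest adjusted p was 0.736 (limma). Genes that mark position in the hindbrain gave a like picture, with 8 of 9 measured Hox genes below the median and none called. By the brightest probe set of a gene, 6724 of all 18193 genes were near background. Tph2 and Slc6a4, the genes that define a serotonin neuron, were both below the median of all probe sets in these hemispheres. On the olfactory receptor scale Slc6a4 was nevertheless brighter than 38 of 44 probe sets. In pooled tissue, fewer cells of a type and less RNA per cell cannot be told apart.

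Of 8 genes that act around TPH2 in the pathway, 2 were near background. The list holds Tph1, the second tryptophan hydroxylase, Ddc, which decarboxylates the product to serotonin, Slc18a2, which loads monoamines into vesicles, and 5 genes that make or recycle the cofactor tetrahydrobiopterin. None of the 8 was called in any comparison on all 9 arrays. The median difference was -0.120 for BALB/cJ minus C57BL/6ByJ, against 0.015 over all 18193 genes, and -0.141 for B6By.C.132.54 minus C57BL/6ByJ, against -0.016. Without B6By.C.132.54 replicate 3 the B6By.C.132.54 minus C57BL/6ByJ median was -0.046, against -0.007 over all genes. The brightest gene was Qdpr, which regenerates the cofactor, at a mean of 10.41, and the dimmest was Tph1 at 2.74.

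Ddc and Pts are given in full, a choice made after their values were seen, because both had all 3 BALB/cJ arrays below all 3 C57BL/6ByJ arrays. Ddc was at 5.73, 6.02 and 4.94 in B6By.C.132.54, 5.22, 5.29 and 5.09 in BALB/cJ, and 5.62, 5.81 and 5.63 in C57BL/6ByJ. Its BALB/cJ minus C57BL/6ByJ difference of -0.49 did not pass the test (limma adjusted p = 0.636), and 1 of the B6By.C.132.54 arrays, replicate 3, lay below all BALB/cJ arrays while the others lay above them. Without replicate 3, Ddc was higher in B6By.C.132.54 than in BALB/cJ by 0.67 and passed (limma adjusted p = 0.0224). Ddc passed in no other of the 9 fits that each left out 1 array. Pts, which catalyses a step of cofactor synthesis, was at 5.28, 5.17 and 4.71 in B6By.C.132.54, 4.95, 4.92 and 5.17 in BALB/cJ, and 5.32, 5.37 and 5.46 in C57BL/6ByJ. The difference of -0.37 between BALB/cJ and C57BL/6ByJ did not pass either (limma adjusted p = 0.482). By brightest probe set, 1219 of all 18193 genes had all 3 BALB/cJ arrays below all 3 C57BL/6ByJ arrays. Counting both directions, groups of 3 arrays failed to overlap for 12.6% of all probe sets in this comparison.

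Htr1a encodes the 5-HT1A receptor, an inhibitory receptor that sits on serotonin neurons as an autoreceptor and on many forebrain neurons (chromosome 13). Its brighter probe set was at 5.33, 5.36 and 5.31 in B6By.C.132.54, 5.36, 5.36 and 5.68 in BALB/cJ, and 5.47, 5.43 and 5.36 in C57BL/6ByJ. All arrays but BALB/cJ replicate 3 lay within a narrow band. The dimmer probe set was at 4.52, 4.15 and 4.51 in B6By.C.132.54, 4.55, 4.79 and 4.54 in BALB/cJ, and 4.49, 4.54 and 4.79 in C57BL/6ByJ. On it, the B6By.C.132.54 arrays lay below all BALB/cJ arrays by a margin smaller than the spread within either strain, and the brighter probe set did not show this. The differences for BALB/cJ minus C57BL/6ByJ were 0.05 and 0.02, those for B6By.C.132.54 minus C57BL/6ByJ were -0.08 and -0.21, and those for B6By.C.132.54 minus BALB/cJ were -0.14 and -0.23. None of these 6 values passed the test, and the lowest adjusted p was 0.775 (limma).

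Htr1b encodes the 5-HT1B receptor, an inhibitory receptor found largely on axon terminals (chromosome 9). The brighter probe set was at 5.26, 5.22 and 5.22 in B6By.C.132.54, 5.41, 5.49 and 5.20 in BALB/cJ, and 5.20, 5.23 and 5.38 in C57BL/6ByJ. The dimmer one was at 5.31, 5.11 and 4.89 in B6By.C.132.54, 5.23, 5.21 and 4.25 in BALB/cJ, and 5.21, 5.21 and 5.28 in C57BL/6ByJ. The probe sets disagreed in sign for BALB/cJ minus C57BL/6ByJ, with 0.09 on the brighter (limma adjusted p = 0.947) and -0.33 on the dimmer (0.86). The low value of BALB/cJ replicate 3 on the dimmer probe set stood alone, since the other BALB/cJ arrays (5.23 and 5.21) lay among the C57BL/6ByJ arrays (5.21 to 5.28), and without replicate 3 the difference was -0.01. This probe set also had the largest standard error of the 12 (0.223). Its intervals were correspondingly wide, from -0.83 to 0.16 for BALB/cJ minus C57BL/6ByJ.

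Htr2c encodes the 5-HT2C receptor, a receptor coupled to phospholipase C that is known for very strong expression in the choroid plexus (X chromosome). The brighter probe set was at 7.30, 6.71 and 6.63 in B6By.C.132.54, 6.96, 6.71 and 6.62 in BALB/cJ, and 7.14, 6.90 and 6.84 in C57BL/6ByJ. In every strain the array numbered 1 in the labels was the highest. The strain differences were smaller than this spread, at -0.20 for BALB/cJ minus C57BL/6ByJ, -0.08 for B6By.C.132.54 minus C57BL/6ByJ and 0.11 for B6By.C.132.54 minus BALB/cJ (limma adjusted p = 0.927, 0.955 and 0.934). Within the same replicate number, BALB/cJ was below C57BL/6ByJ by a nearly constant amount, with differences of -0.18, -0.19 and -0.22, and the adjusted p with the number as a block was 0.507 (limma). The dimmer probe set was at 4.93, 5.24 and 4.51 in B6By.C.132.54, 5.04, 4.80 and 5.03 in BALB/cJ, and 5.04, 5.04 and 5.33 in C57BL/6ByJ. It showed no such order by number, and its differences of -0.18, -0.24 and -0.06 in the same 3 comparisons were not called (limma adjusted p = 0.938, 0.915 and 0.969). Without B6By.C.132.54 replicate 3, B6By.C.132.54 minus C57BL/6ByJ was 0.04 on the brighter probe set and -0.05 on the dimmer, and B6By.C.132.54 minus BALB/cJ was 0.24 and 0.13.

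The highest level in number 1 was not particular to Htr2c. It held for 3393 probe sets, 7.53% of all. The mean deviation of the brighter Htr2c probe set from its strain means was 0.26 for number 1, -0.09 for number 2 and -0.17 for number 3. Ttr, which encodes transthyretin and is a defining marker of choroid plexus, deviated by 0.18, -0.06 and -0.12. The astrocyte gap junction gene Gja1, named here after its values were seen, deviated by 0.69, -0.13 and -0.56. The other measured choroid plexus and ependyma markers did not follow this order together: Clic6 deviated by 0.10, -0.03 and -0.07, whereas Folr1 deviated by -0.04, 0.15 and -0.11 and Kl by -0.19, 0.17 and 0.02. Of the 12 choroid plexus and ependyma markers, 10 were measured and 4 of these were near background. Their summed intensity lay between 3767 and 4630 in B6By.C.132.54, 3758 and 4732 in BALB/cJ, and 4147 and 4907 in C57BL/6ByJ. No brightest probe set of these genes was called, and a second probe set of Sostdc1 was higher in BALB/cJ than in C57BL/6ByJ by 0.90 (limma adjusted p = 0.0325). The study was run in 3 batches according to its design text, but no label ties a number to a batch, and the part of batch or tissue makeup in the Htr2c values was not tested.

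**Figure D2:**
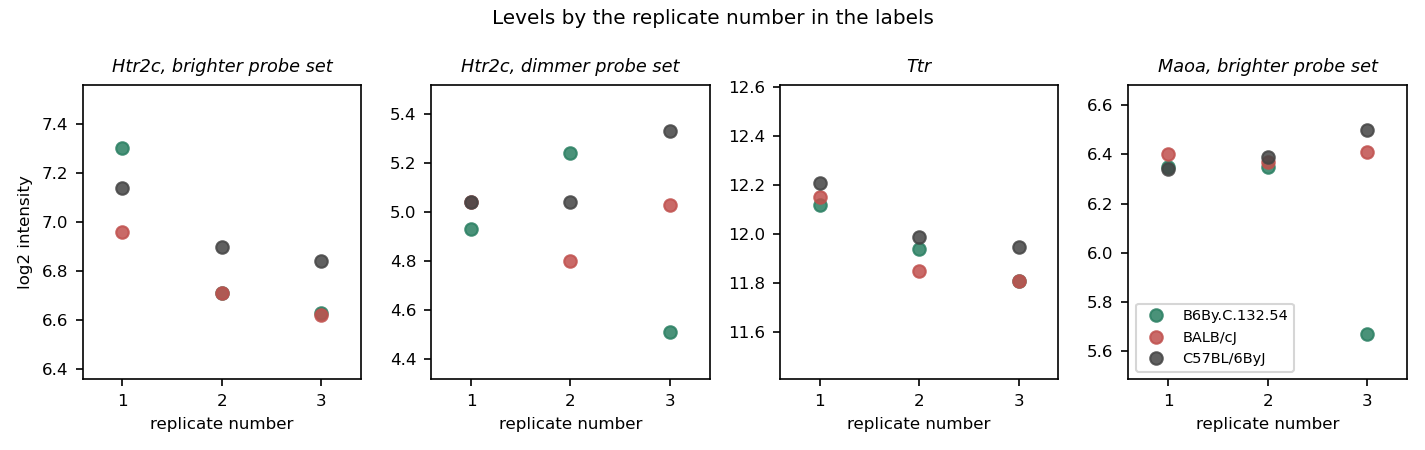
Log2 intensity (vertical axes, each with its own range) against the replicate number in the labels for both Htr2c probe sets, Ttr and the brighter Maoa probe set, with 1 point per array coloured by strain. The brighter Htr2c probe set and Ttr are highest in number 1 in every strain, the dimmer Htr2c probe set is not, and for Maoa the 1 array that stands apart is B6By.C.132.54 replicate 3 at 5.67.

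Htr3a encodes a subunit of the 5-HT3 receptor, the ion channel among serotonin receptors, which marks a class of cortical interneurons (chromosome 9). It was at 4.70, 4.53 and 4.68 in B6By.C.132.54, 4.65, 4.65 and 4.60 in BALB/cJ, and 4.65, 4.77 and 4.83 in C57BL/6ByJ. The groups overlapped or touched. This probe set had the smallest standard error of the 12 (0.0857), and the differences were -0.12, -0.11 and 0.00 for BALB/cJ minus C57BL/6ByJ, B6By.C.132.54 minus C57BL/6ByJ and B6By.C.132.54 minus BALB/cJ (limma adjusted p = 0.895, 0.915 and 0.999). The 95% interval of the first ran from -0.30 to 0.07. None of the 10 genes of the interneuron class that carries this receptor was called on all 9 arrays. Without B6By.C.132.54 replicate 3, Adarb2 passed with 0.47 for BALB/cJ minus C57BL/6ByJ and -0.53 for B6By.C.132.54 minus BALB/cJ (limma adjusted p = 0.0401 and 0.0484). Adarb2 passed in no other of the 9 fits that each left out 1 array. The summed intensity of the 10 genes lay between 2192 and 2404 in B6By.C.132.54, 2155 and 2332 in BALB/cJ, and 2287 and 2470 in C57BL/6ByJ.

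Among the other serotonin receptor genes, all 9 were measured and none was called in any comparison. Of these, 7 were near background. The brightest was Htr7, a receptor that raises cyclic AMP, at a mean of 5.63, and the dimmest was Htr3b, the second 5-HT3 subunit, at 2.89. Their BALB/cJ minus C57BL/6ByJ differences lay between -0.02 and 0.22, with a median of 0.074 against 0.015 over all genes, and the lowest adjusted p was 0.756 (limma). All 16 genes of receptor coupling partners, such as G proteins, adenylyl cyclases and inwardly rectifying potassium channels, were above the median of all probe sets. They ran between Kcnj6 at 4.11 and Gnas, the stimulatory G protein, at 11.54, with differences between -0.22 and 0.21 over the 3 comparisons and none called.

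Maoa encodes monoamine oxidase A, the form that prefers serotonin and noradrenaline. Its brighter probe set was at 6.35, 6.35 and 5.67 in B6By.C.132.54, 6.40, 6.37 and 6.41 in BALB/cJ, and 6.34, 6.39 and 6.50 in C57BL/6ByJ. All arrays but B6By.C.132.54 replicate 3 lay between 6.34 and 6.50. BALB/cJ minus C57BL/6ByJ was -0.02 ± 0.158 (SE; limma adjusted p = 0.997), with a 95% interval between -0.37 and 0.33. B6By.C.132.54 minus C57BL/6ByJ was -0.29 and B6By.C.132.54 minus BALB/cJ was -0.27, neither called (limma adjusted p = 0.915 and 0.794). Replicate 3 set both of these values: without it they were -0.062 and -0.042.

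The dimmer Maoa probe set, with a mean of 4.07, lay just above the median of all probe sets. It was at 3.51, 4.14 and 3.71 in B6By.C.132.54, 4.17, 4.26 and 4.16 in BALB/cJ, and 4.27, 3.90 and 4.52 in C57BL/6ByJ. Here the B6By.C.132.54 arrays lay below all BALB/cJ arrays, with replicate 1 the lowest, but overlapped C57BL/6ByJ. The differences were -0.44 for B6By.C.132.54 minus C57BL/6ByJ (unadjusted p = 0.0287, limma adjusted p = 0.915) and -0.41 for B6By.C.132.54 minus BALB/cJ (unadjusted p = 0.0408, limma adjusted p = 0.623). They are the largest uncalled differences among the 12 probe sets in these comparisons, and they did not survive adjustment over all probe sets. The probe sets thus had the same sign in B6By.C.132.54. Replicate 3 lay below all arrays of the other strains on both, and replicate 1 did so on the dimmer only.

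Maob encodes monoamine oxidase B, which in brain is found mainly in astrocytes and in serotonin neurons and prefers phenylethylamine. It was at 6.56, 6.67 and 6.38 in B6By.C.132.54, 6.05, 6.24 and 6.12 in BALB/cJ, and 6.68, 6.76 and 6.79 in C57BL/6ByJ. The 3 strains did not overlap: every BALB/cJ array was below every B6By.C.132.54 array, and every B6By.C.132.54 array was below every C57BL/6ByJ array, although the highest B6By.C.132.54 array (6.67) and the lowest C57BL/6ByJ array (6.68) nearly touched. B6By.C.132.54 averaged 6.54 ± 0.146, BALB/cJ 6.14 ± 0.0928 and C57BL/6ByJ 6.74 ± 0.0598 (SD, n = 3 each). The gene had 1 probe set, so no other probe set bears on these values.

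Maob was lower in BALB/cJ than in C57BL/6ByJ. The BALB/cJ minus C57BL/6ByJ difference was -0.61 ± 0.0965 on the log2 scale (SE; limma adjusted p = 0.00818), with a 95% interval between -0.82 and -0.39. The level was 1.52-fold lower in BALB/cJ. Paired by replicate number, the difference was -0.62, -0.53 and -0.67, so it was larger in each pair than the spread among arrays of either strain. By unadjusted p it was number 351 among the 45037 probe sets. Its direction and call held when each array was left out in turn, with adjusted p at most 0.0489 (limma).

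B6By.C.132.54 was higher than BALB/cJ on all 3 arrays, by 0.40 (95% interval 0.19 to 0.61), or 1.32-fold. This difference had an unadjusted p of 0.00174 and did not pass after adjustment over all probe sets (limma adjusted p = 0.105). Without B6By.C.132.54 replicate 3, its lowest Maob array, the difference was 0.475 and passed (limma adjusted p = 0.0456). B6By.C.132.54 was also below C57BL/6ByJ on all 3 arrays, with a difference of -0.21, which was not called (unadjusted p = 0.0538, limma adjusted p = 0.915) and was -0.131 without replicate 3. The place of B6By.C.132.54 between the other strains is a description of these arrays, and of the 3 Maob differences only BALB/cJ minus C57BL/6ByJ passed the test on all 9 arrays. Comparisons that share a strain share its arrays.

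**Figure D3:**
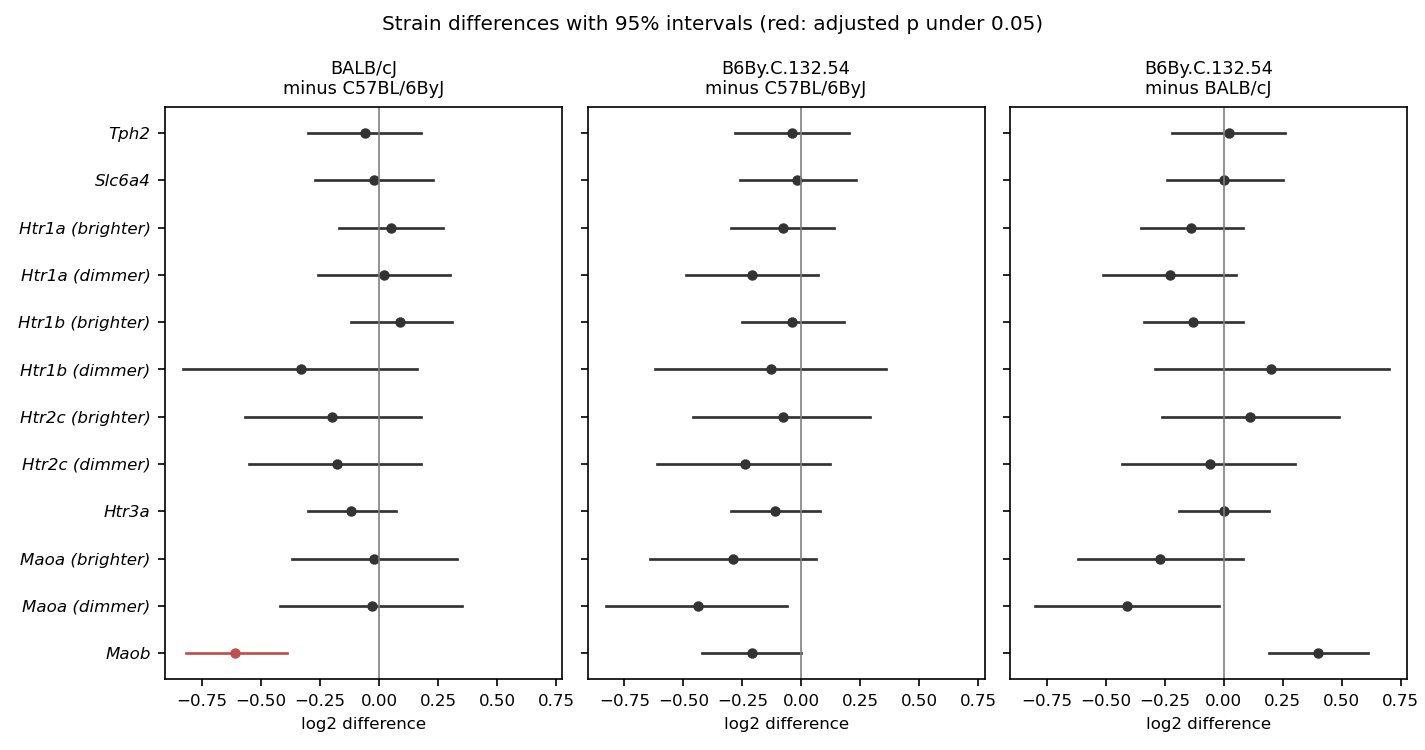
Log2 difference of each probe set (points) with its 95% interval (lines) for BALB/cJ minus C57BL/6ByJ, B6By.C.132.54 minus C57BL/6ByJ and B6By.C.132.54 minus BALB/cJ; red marks an adjusted p under 0.05. Maob in BALB/cJ minus C57BL/6ByJ (-0.61) is the 1 red point, and the intervals of the dimmer Maoa probe set exclude 0 in both B6By.C.132.54 panels without passing the adjusted test.

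Over all 12 probe sets, 9 of the BALB/cJ minus C57BL/6ByJ differences were below 0, with a median of -0.046 against 0.018 over all probe sets. All 12 of the B6By.C.132.54 minus C57BL/6ByJ differences were below 0, with a median of -0.123 against -0.013. Without B6By.C.132.54 replicate 3, 10 of the 12 were below 0, with a median of -0.067 against -0.005. For B6By.C.132.54 minus BALB/cJ, 6 were below 0, with a median of -0.031 against -0.024. By brightest probe set, 10067, 8161 and 7603 of all 18193 genes had differences above 0 in the same 3 comparisons. The 12 probe sets stand for 8 genes and share the same arrays, so their signs are not independent. The arrays of the groups failed to overlap for 1 probe set between BALB/cJ and C57BL/6ByJ (12.6% of all probe sets) and for 1 between B6By.C.132.54 and C57BL/6ByJ (6.62%), in both cases Maob. Between B6By.C.132.54 and BALB/cJ they failed to overlap for 4 (9.51%): Maob above, and both Maoa probe sets and the dimmer Htr1a probe set below. The 95% intervals of the uncalled differences reached -0.83 at the lower end and 0.70 at the upper, so the arrays do not show that these transcripts were at equal levels in the strains.

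Maob was set beside the genes around it on the X chromosome, in the gene order of RefSeq (GRCm38.p6). Maoa is the next gene on one side, and 5 further measured genes on each side were taken: Ddx3x, Nyx, Cask, Gpr34 and Cypt1 beyond Maoa, and Ndp, Efhc2, Fundc1, Dusp21 and Kdm6a beyond Maob. None of the 10 was called in any comparison, and their differences lay between -0.22 and 0.18 with a lowest adjusted p of 0.765 (limma). Of the 10, 6 were near background. Among the brighter ones, Fundc1, a mitochondrial outer membrane protein, differed by -0.07 between BALB/cJ and C57BL/6ByJ, and Kdm6a, a histone demethylase, by 0.00. Across the X chromosome, 4 of 618 genes were higher and 2 lower in BALB/cJ than in C57BL/6ByJ (0.971%, against 1.32% of all genes).

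**Figure D4:**
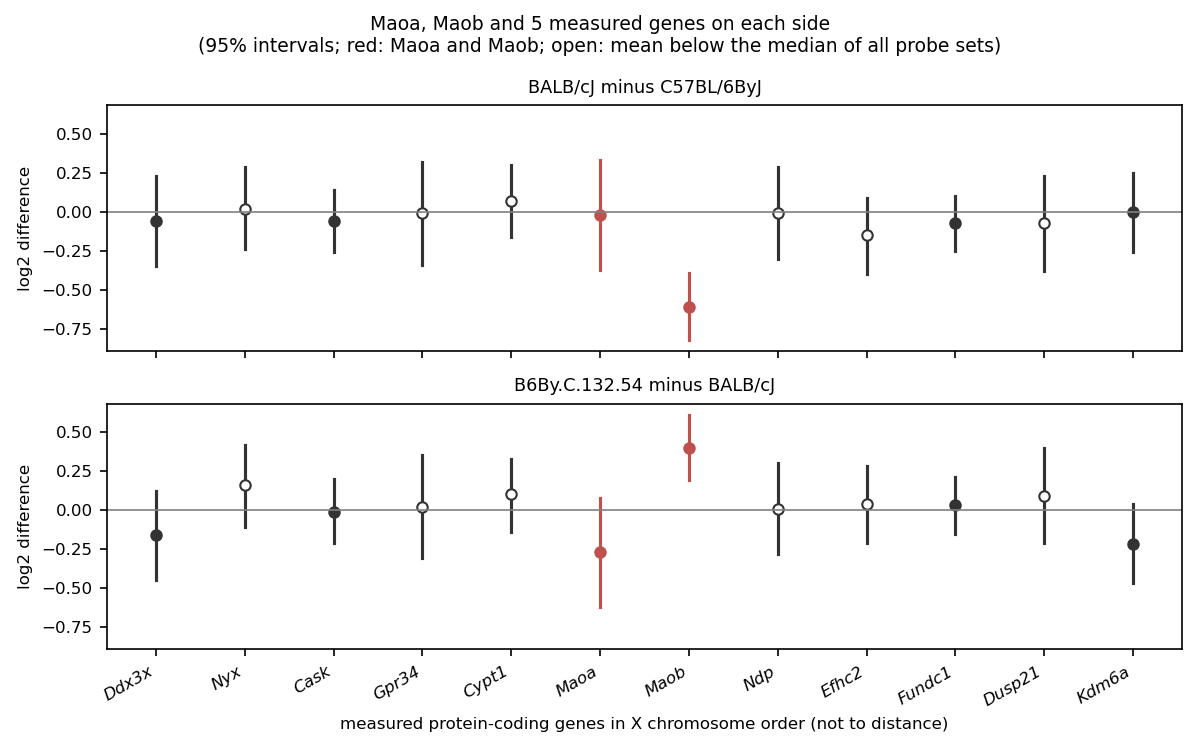
Log2 difference with its 95% interval (vertical axis) for Maoa, Maob (red) and 5 measured genes on each side, in gene order along the X chromosome and not to distance; open points have means below the median of all probe sets. The interval of Maob lies below 0 for BALB/cJ minus C57BL/6ByJ (upper panel) and above 0 for B6By.C.132.54 minus BALB/cJ (lower panel), and every neighbour's interval includes 0.

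Astrocytes are known to carry much of the brain's Maob, so the 11 astrocyte markers were read beside it. Gfap, the astrocyte intermediate filament, changed in the opposite direction: it was at 7.99, 8.09 and 8.09 in BALB/cJ against 6.96, 7.47 and 6.99 in C57BL/6ByJ, a difference of 0.92 (limma adjusted p = 0.00393). Further Gfap probe sets were called in the same direction, with 0.89 and 0.71 (limma adjusted p = 0.00619 and 0.0456). No other astrocyte marker was called by its brightest probe set. A second probe set of the glutamate transporter gene Slc1a2 was higher in BALB/cJ than in C57BL/6ByJ by 1.80 (limma adjusted p = 0.00138). On it, B6By.C.132.54 minus BALB/cJ was -2.01 (limma adjusted p = 0.000653). The summed intensity of the 11 markers lay between 6766 and 7845 in B6By.C.132.54, 7359 and 7471 in BALB/cJ, and 7584 and 7919 in C57BL/6ByJ, so that BALB/cJ was below C57BL/6ByJ on this sum without overlap. The median difference of the list was -0.032 between BALB/cJ and C57BL/6ByJ. All 11 were above the median of all probe sets. Outside astrocytes, 2 of 8 measured microglia markers, C1qb and C1qc, were lower in BALB/cJ than in C57BL/6ByJ, each with a difference of -0.75 (limma adjusted p = 0.0193 and 0.00943), while 4 of the 8 had differences above 0 and the list median was -0.025. Of 9 endothelial and pericyte markers, Cldn5 was lower with -0.54 (limma adjusted p = 0.0466), 1 had a difference above 0, and the list median was -0.125. With each of the 9 arrays left out in turn, C1qc kept its call in 8 fits, C1qb in 4 and Cldn5 in 1, and Gfap in 9. For B6By.C.132.54 minus BALB/cJ, C1qb and C1qc were called with 0.88 and 0.83 (limma adjusted p = 0.00674 and 0.00475), each kept in 9 fits. By brightest probe set, Gfap was called with -0.71 and Rgs5, of the endothelial and pericyte list, with -0.56 (limma adjusted p = 0.0238 and 0.0361). These calls were kept in 4 and 2 fits. The further Gfap probe sets were called with -0.81 and -0.73 (limma adjusted p = 0.0122 and 0.0417). Of the astrocyte, microglia, and endothelial and pericyte markers, 4 of 11, 3 of 8 and 4 of 9 differences were above 0. The list medians were -0.086, -0.061 and -0.009. None of the 8 measured oligodendrocyte markers was called. Among the 12 neuron markers, no brightest probe set was called in any comparison. Another probe set of Camk2a was higher in BALB/cJ than in C57BL/6ByJ by 1.02 (limma adjusted p = 0.000784). On it, B6By.C.132.54 minus BALB/cJ was -1.22 (limma adjusted p = 0.000231). The part of cell makeup in the Maob difference was not tested.

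The measured genes that act beside or after the monoamine oxidases were 8 of a list of 12, and the other 4 were not analysed here. Aldh1a1, a cytosolic aldehyde dehydrogenase that can oxidise the aldehydes made from monoamines, was the 1 called gene. It was at 8.32, 8.04 and 7.86 in B6By.C.132.54, 6.85, 6.73 and 6.62 in BALB/cJ, and 8.28, 8.21 and 7.95 in C57BL/6ByJ. Aldh1a1 fell by 1.41 in BALB/cJ relative to C57BL/6ByJ (limma adjusted p = 0.000182) and was higher in B6By.C.132.54 than in BALB/cJ by 1.34 (limma adjusted p = 0.000294). Its B6By.C.132.54 and C57BL/6ByJ arrays overlapped, with a difference of -0.07. Aldh2, the mitochondrial aldehyde dehydrogenase, differed by 0.02, -0.08 and -0.10 in the 3 comparisons, and the brightest gene of the list, Akr1a1, an aldehyde reductase, by -0.10, -0.12 and -0.02. The dimmest was Slc22a2, an organic cation transporter, at a mean of 2.78, and 3 of the 8 were near background.

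Catecholamine neuron genes, which share monoamine oxidases as the route of breakdown, were read in the same way. All 6 were measured, and none was called in any comparison. The brightest was Pnmt, which makes adrenaline, at 6.67, and the dimmest was Slc18a1, a vesicular transporter, at 3.57. Th, the rate-limiting enzyme of catecholamine synthesis, was at 5.21, 5.41 and 5.78 in B6By.C.132.54, 5.37, 5.71 and 5.49 in BALB/cJ, and 5.31, 5.41 and 5.49 in C57BL/6ByJ, with full overlap.

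**Figure D5:**
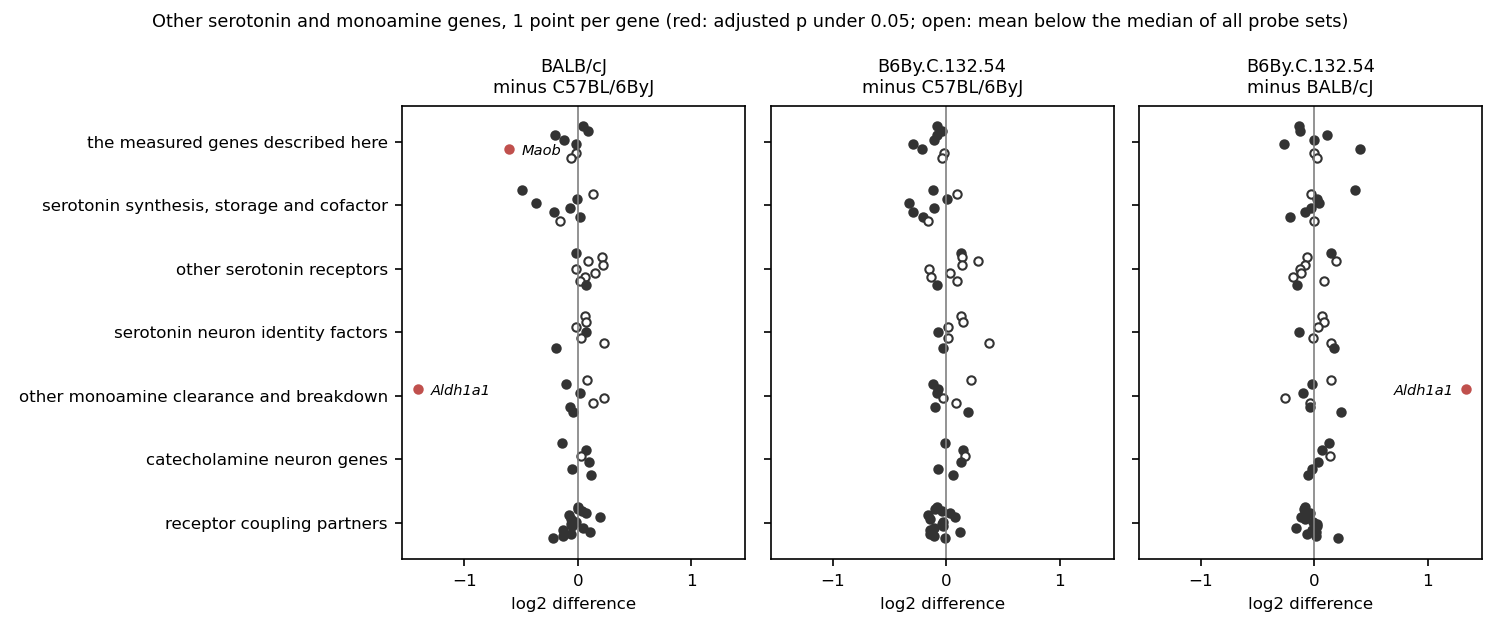
Log2 differences (horizontal axes) in the 3 strain comparisons for the measured genes described here and for 6 lists of other serotonin and monoamine genes, 1 point per gene by its brightest probe set; red marks an adjusted p under 0.05 and open points have means below the median of all probe sets. The 2 genes marked red are Maob (-0.61) and Aldh1a1 (-1.41 and 1.34), and many serotonin receptor and identity factor genes are open.

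As a description, the genes whose levels followed each gene most closely over the 9 arrays were found among 11468 genes (11469 for Tph2 and Slc6a4) with means at or above the median of all probe sets. For Maob they were Prmt5, an arginine methyltransferase (Pearson r = 0.990), Lypd6 (0.983) and the non-coding gene Pantr1 (0.981). Without the 2 arrays farthest from the Maob median these were 0.977, 0.970 and 0.981. Prmt5 and Lypd6 were also lower in BALB/cJ than in C57BL/6ByJ, with differences of -0.70 and -0.42 (limma adjusted p = 0.0116 and 0.0277). Pantr1 was not called, with -0.27 (limma adjusted p = 0.191). These genes were picked for following Maob over the same arrays, so a like strain difference comes with the selection. Prmt5 and Lypd6 lie on chromosomes 14 and 2.

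For Htr2c the closest were Ube2e1 (0.979), Ubxn2a (0.976) and Npat (0.976), and they stayed at 0.932, 0.938 and 0.963 without the 2 farthest arrays. For Maoa the closest were Pibf1 (0.988), Thoc5 (0.985) and Tusc1 (0.977), which dropped to 0.612, 0.603 and 0.508 over the 7 arrays left, B6By.C.132.54 replicate 3 being 1 of the 2 left out. Htr1a was closest to Rspo2 (0.983), Flrt3 (0.950) and Rnf135 (0.928), Htr1b to Dcpp3 (0.929), Stac3 (0.862) and Larp6 (0.861), and Htr3a to Sft2d2 (0.897), Susd2 (0.866) and Cep170 (0.842). Without the 2 farthest arrays these were 0.946, 0.568 and 0.689 for Htr1a, 0.705, 0.895 and 0.912 for Htr1b, and 0.785, 0.717 and 0.700 for Htr3a. For Slc6a4 they were P2rx7 (0.958), Tmem132e (0.925) and Timp2 (0.912), and for Tph2 they were Fam118b (0.904), Tm6sf1 (0.900) and Toe1 (0.872). Without the 2 farthest arrays these were 0.942, 0.882 and 0.881 for Slc6a4 and 0.779, 0.768 and 0.703 for Tph2. The sets of Slc6a4 and Tph2 rest on values near background. The points share strain, array and replicate number, and the best of so many genes is high by selection.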

How the data were processed

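Each deposited value is the linear intensity of a probe set on 1 array, and GCOS and RMA are named, without versions or an order, per the submitters' processing notes. How background was treated is not given in the sources used here. Of all probe sets, 64 controls were left out. Symbols came from the platform annotation (34945 probe sets with 1 gene, 932 with several, 9160 with none) and 34741 were updated through RefSeq (GRCm38.p6).

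Intensities were taken to log2 with no offset or further scaling. Strain means were estimated over the 9 arrays together in limma 3.58.1 (R 4.3.3, lmFit, eBayes, two-sided, residual degrees of freedom 6, prior 4.823). The p was adjusted after Benjamini-Hochberg over 45037 probe sets, with a threshold of 0.05. A check of the fit on simulated data used independent noise and changes planted in brighter probe sets only. It does not cover deviations shared by replicate number or differences in dim probe sets. Near background means a mean log2 below 3.97, the median of all probe sets. A gene with several probe sets is represented by the brightest, and 6724 of the 18193 genes were near background by that probe set. Other list genes were named where a probe set was called, or as the brightest and dimmest of a list, with exceptions stated. Genes and lists were chosen with earlier results of these data known. The values of 7 of the 12 probe sets repeat exactly on 2 or more arrays, as do 61.5% of all. Labels call the arrays biological replicates and give the strains the same replicate numbers: deviations of same-numbered arrays correlated by 0.15 to 0.54 in 9 pairs, so a fit with the number as a block was run beside the main one. The alternatives were quantile normalization, median centring, an offset of 16, leaving out dim probe sets, the median over probe sets, only the 6 arrays compared, trended and robust eBayes, the replicate block, and each array left out in turn, which for the gene lists and the summary over the 12 probe sets was chosen after seeing the data. The number of arrays limits the precision.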

Additional observations from a re-analysis of the deposited data

How the results depend on the processing

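Of 438 alternative values, 409 were labelled unchanged. For a difference this meant the same sign and the same side of the threshold. For a count of called probe sets it meant only staying within a fixed fold range of the main count. Of the rest, 26 differences changed sign, 2 gained a call and 1 count left that range. Maob in BALB/cJ minus C57BL/6ByJ held in all 16, between -0.657 and -0.512 with adjusted p between 0.00188 and 0.0489 (limma). Settings that left the BALB/cJ and C57BL/6ByJ values as they were could change only its adjusted p, not the difference. Maob in B6By.C.132.54 minus BALB/cJ passed with quantile normalization (0.450, limma adjusted p = 0.0117) and without B6By.C.132.54 replicate 3 (leave-one-out range 0.331 to 0.475). The probe sets called between BALB/cJ and C57BL/6ByJ numbered 410 to 706 with an array left out, against 644, with the fewest without C57BL/6ByJ replicate 2. With the replicate block, Maob was -0.607 in BALB/cJ minus C57BL/6ByJ (limma adjusted p = 0.00446), the counts of called probe sets were 953, 0 and 834 against 644, 0 and 575, and no call on the 12 probe sets changed.

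The sign of some uncalled differences turned, and the cause was not tested. Htr1b became -0.120 in BALB/cJ minus C57BL/6ByJ and 0.036 in B6By.C.132.54 minus BALB/cJ with the median over its probe sets, and 0.005 in B6By.C.132.54 minus C57BL/6ByJ with quantile normalization. With each array left out in turn, BALB/cJ minus C57BL/6ByJ ran between -0.111 and 0.017 for Tph2, -0.102 and 0.065 for Slc6a4, -0.057 and 0.105 for Htr1a, and -0.054 and 0.026 for Maoa. B6By.C.132.54 minus C57BL/6ByJ ran between -0.120 and 0.031 for Tph2, -0.099 and 0.070 for Slc6a4, -0.072 and 0.020 for Htr1b, and -0.293 and 0.041 for Htr2c. B6By.C.132.54 minus BALB/cJ ran between -0.062 and 0.070 for Tph2, -0.057 and 0.091 for Slc6a4, -0.096 and 0.238 for Htr2c, and -0.031 and 0.055 for Htr3a. Leaving out dim probe sets gave no value for Tph2 and Slc6a4.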
